A study of Mus musculus with 32 samples.

Results

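The 10 genes described here mark the cells that line blood vessels. They were taken by name: Pecam1, Cdh5, Kdr, Flt1, Tek and Emcn, which endothelial cells of most vessels express, and Stab1, Stab2, Clec4g and Oit3, which are known from the sinusoids of the liver. They are 10 of the 51510 genes measured, and each was followed through all 32 libraries. The libraries come from liver, brown adipose tissue (BAT), heart and muscle of male C57BL/6J mice. For each tissue there were 4 libraries labelled Mut, from a SMIM30 knockout line, and 4 libraries labelled WT, from wild-type mice, which makes 8 groups. The labels give no age, no treatment and no description of the knockout allele. They describe 4 individual mice per tissue, which, with 4 Mut and 4 WT libraries, is taken as 4 per genotype. All groups share the strain and the sex, and all tissues were frozen in liquid nitrogen straight after death. Values are TPM, an abundance corrected for transcript length and scaled to a fixed sum in each library.

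Endothelial cells form the inner wall of every blood vessel. Vascular endothelial growth factors (VEGFs) act on their surface receptors to drive vessel growth, and angiopoietins act on the receptor TEK to keep vessels stable. The capillaries of muscle, heart and fat have a continuous wall, which passes fatty acids to the tissue. The sinusoids of the liver are lined by endothelial cells with open pores and no full basement membrane, and these cells clear waste molecules from blood with scavenger receptors. Some macrophages carry one of these receptors, stabilin-1, as well.

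The tissues matched their labels. The gene of the heat-producing protein of brown fat, Ucp1, had a mean of 3066 TPM in WT BAT and 48.4 to 62.7 TPM elsewhere in WT, and 9 genes of skeletal muscle fibres summed to 76550 TPM or more in WT muscle and to 2440 TPM or less in the other WT libraries. The targeted gene, listed as 2610001J05Rik in the annotation and taken to be Smim30, still gave RNA in Mut libraries, at 21.1 ± 3.38 TPM in Mut liver and 23.2 ± 3.55 TPM in WT liver (SD, n = 4 each). Its log2 fold change (Mut minus WT) was -0.13 in liver, 0.05 in BAT, -0.55 in heart and -0.39 in muscle. The limma adjusted p was 0.569, 0.852, 0.320 and 0.224 in that order. In heart it read 17.78 to 27.42 TPM in Mut and 32.73 to 37.55 TPM in WT, without overlap. In muscle it read 24.35 to 27.27 TPM in Mut and 32.91 to 35.67 TPM in WT, also without overlap. The groups overlapped in liver and BAT, and the gene was called in no tissue. The share of all genes that separate in this way in heart and muscle is not given here. Its RNA level thus does not settle the genotype labels in any of the tissues. In BAT, WT libraries 1 and 2 stood apart from the other 6 on the first principal component, which held 50.9% of the variance between BAT libraries. TPM values keep no read totals, so the depth of a library is unknown and the precision is read from the spread between libraries.

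Across tissues, the 6 general endothelial genes were lowest in WT liver or, for Kdr, in WT muscle, and highest in WT BAT or WT heart. The sinusoidal genes Clec4g and Oit3 were high in liver alone, Stab2 was high in liver and in muscle, and Stab1 averaged 9.98 to 13.3 TPM in liver, heart and BAT. Differences between WT tissues were tested with limma on log2(TPM + 1) in 1 fit over the 16 WT libraries, with Benjamini-Hochberg adjustment over 14310 genes, and a gene was called where the adjusted p was under 0.05. Most genes differ between tissues, so the counts of members have to be read against a high background. Genes entered this fit at a mean of 1 TPM or more in at least 1 WT tissue. Clec4g and Oit3 did so through liver alone, and Stab2 through liver and muscle alone. The direction of their calls against the other tissues was thus fixed by the filter. These 3 are the members called higher in liver than in BAT and in heart. Between liver and BAT, 9 of the 10 members were called, 3 higher and 6 lower in liver, where 71.1% of all genes were called (36.5% higher and 34.6% lower). Between liver and heart the members gave the same counts, against 78.0% of all genes (44.9% higher and 33.1% lower). Between liver and muscle all 10 were called, 5 higher and 5 lower in liver, against 78.7% (42.0% higher and 36.7% lower). BAT and heart were the closest pair for these genes, with 1 member called, lower in BAT, against 61.7% of all genes (38.0% higher and 23.7% lower), although 2 to 4 members were called under 5 alternatives besides leaving out a library. BAT stood above muscle for 7 members and below it for 1, against 71.4% of all genes called (39.7% higher and 31.7% lower), and heart likewise stood above muscle for 7 and below it for 1, against 63.2% (29.0% higher and 34.1% lower).

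**Figure D1:**
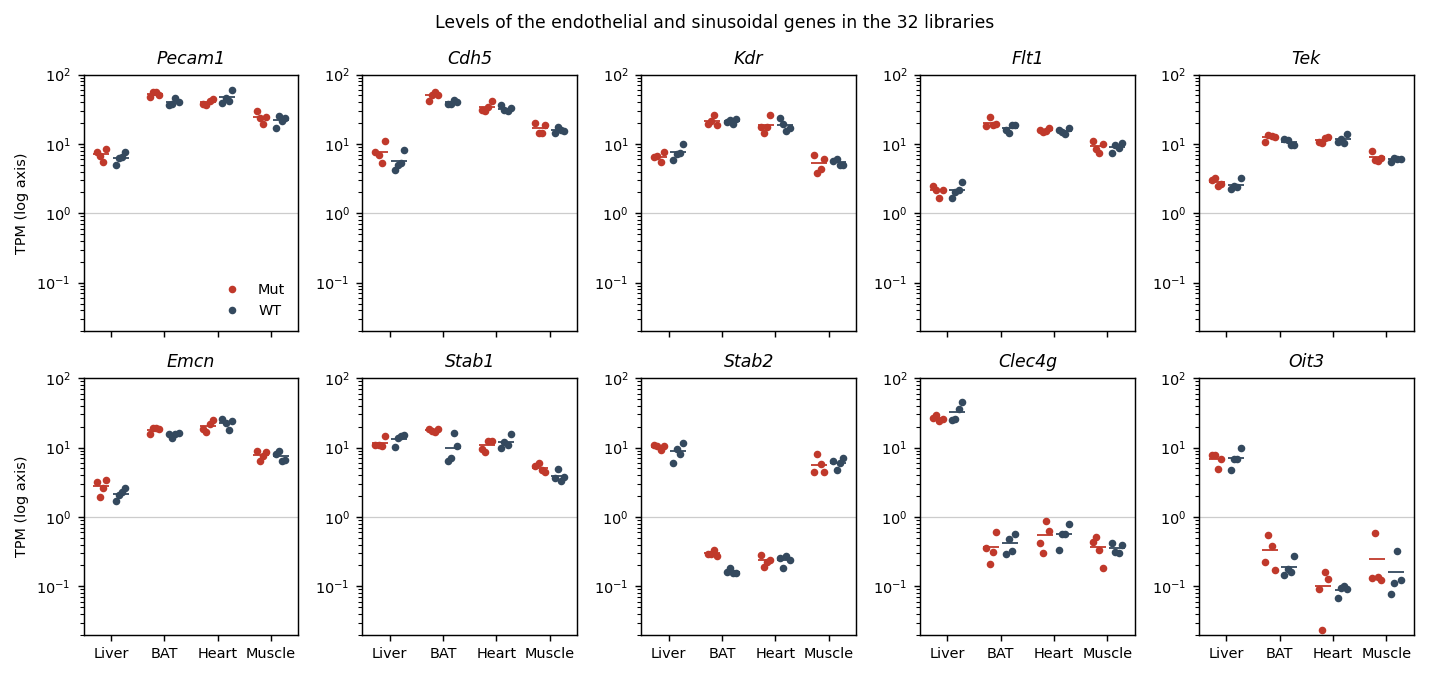
Level of each of the 10 genes in every library, in TPM on a log axis, by tissue and genotype, with points for libraries and bars for group means. The grey line marks 1 TPM; Clec4g and Oit3 lie above it in liver alone, while Stab2 lies above it in liver and muscle.

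Pecam1 (chr11:106654217-106750628, minus strand of GRCm38) encodes CD31, an adhesion protein at the contacts between endothelial cells that is also present on platelets and some leukocytes. It read 5.04, 6.23, 6.44 and 7.73 TPM in the 4 WT livers and 36.7, 37.6, 45.9 and 40.3 TPM in WT BAT. In WT heart it read 39.2, 46.4, 42.2 and 59.99 TPM, and in WT muscle 17.1, 25.0, 21.4 and 23.5 TPM. No liver library came near any other tissue, muscle lay between, and heart and BAT overlapped. The liver mean was 6.36 ± 1.10 TPM, against 40.1 ± 4.15 TPM in BAT (SD, n = 4 each; log2 fold change, liver minus BAT, -2.49, SE 0.14, adjusted p = 4.12e-11). BAT and heart did not differ past the threshold (log2 fold change, BAT minus heart, -0.21, adjusted p = 0.215), but that depended on the scaling and the genotype. Pecam1 was called lower in BAT after median-ratio scaling (-0.44, adjusted p = 0.00152) and after rescaling without the most abundant genes (-0.36, adjusted p = 0.0172), and higher in BAT in the Mut libraries (0.41, adjusted p = 0.00862). Cdh5 (chr8:104101625-104144511, plus strand) encodes VE-cadherin, the adhesion protein of endothelial junctions. It averaged 5.65 ± 1.78 TPM in WT liver, 39.9 ± 2.72 TPM in BAT, 32.4 ± 2.96 TPM in heart and 15.7 ± 1.29 TPM in muscle. Its BAT libraries, at 37.4 TPM or more, all lay above its heart libraries, at 36.4 TPM or less, but that difference missed the threshold (log2 fold change 0.29, adjusted p = 0.0664). It passed with array weights (0.30, adjusted p = 0.0408), in the Mut libraries (0.54, adjusted p = 0.0099) and without 1 of heart WT library 1, liver WT library 1 and liver WT library 4 (lowest adjusted p = 0.00829).

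The receptors of vessel growth factors followed the same order, apart from Kdr. Flt1 (chr5:147561604-147726011, minus strand) encodes VEGF receptor 1, which binds VEGF tightly and signals weakly. It averaged 2.18 ± 0.480 TPM in WT liver, 16.9 ± 2.25 TPM in BAT, 15.4 ± 1.40 TPM in heart and 9.08 ± 1.34 TPM in muscle, and of these neighbours BAT and heart did not differ past the threshold (log2 fold change 0.12, adjusted p = 0.422), while they did in the Mut libraries (0.33, adjusted p = 0.0196). Tek (chr4:94739289-94874976, plus strand) encodes TIE2, the receptor of the angiopoietins. It averaged 2.59 ± 0.410 TPM in WT liver, 10.6 ± 1.17 TPM in BAT, 11.7 ± 1.55 TPM in heart and 6.00 ± 0.334 TPM in muscle, with no call between BAT and heart (log2 fold change -0.12, adjusted p = 0.328). Tek was called lower in BAT than in heart after median-ratio scaling (-0.34, adjusted p = 0.00892) and after rescaling (-0.28, adjusted p = 0.0311). Kdr (chr5:75932827-75978458, minus strand) encodes VEGF receptor 2, the main signalling receptor of VEGF. It read 5.80, 7.25, 7.44 and 9.99 TPM in the 4 WT livers, against 5.65, 5.97, 5.05 and 5.02 TPM in WT muscle. The highest muscle library lay above the lowest liver library, so the groups overlapped. Kdr was thus the 1 general endothelial gene that was not lowest in liver (log2 fold change, liver minus muscle, 0.41, SE 0.14, adjusted p = 0.0115). That call was lost after median-ratio scaling (0.26, adjusted p = 0.0996), after rescaling without the most abundant genes (0.03, adjusted p = 0.866), without liver WT library 4 (0.28, adjusted p = 0.0509) and in the Mut libraries (0.28, adjusted p = 0.150).

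Emcn (chr3:137341067-137432185, plus strand) encodes endomucin, a sialomucin on the surface of capillary and venous endothelium. It read 1.67, 2.04, 2.31 and 2.57 TPM in the 4 WT livers, against 26.1, 22.7, 18.1 and 24.3 TPM in WT heart. In WT BAT it read 15.9, 13.6, 15.5 and 16.1 TPM, below every heart library, and in WT muscle it averaged 7.46 ± 1.10 TPM. Emcn had the largest gap between liver and heart of the 6 general endothelial genes, at 10.6 times higher in heart by the group means (log2 fold change, liver minus heart, -2.91, SE 0.12, adjusted p = 4.26e-13). It was also the 1 member called between BAT and heart (log2 fold change -0.54, SE 0.12, adjusted p = 0.000965). In the Mut libraries that difference was smaller and not called (-0.17, adjusted p = 0.304).

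Stab2 (chr10:86841198-87008025, minus strand) encodes stabilin-2, the hyaluronan scavenger receptor of liver sinusoids. It read 6.03, 9.64, 8.01 and 11.6 TPM in the 4 WT livers, against 6.43, 4.68, 5.91 and 7.17 TPM in WT muscle. In WT BAT it read 0.153 to 0.181 TPM and in WT heart 0.186 to 0.270 TPM. Liver and muscle overlapped, while BAT and heart lay far below both. Its liver mean was 1.46 times its muscle mean (log2 fold change 0.46, SE 0.14, adjusted p = 0.00784), a call that was lost after rescaling without the most abundant genes (0.08, adjusted p = 0.636). Muscle was 37.4 times BAT by the means (log2 fold change, BAT minus muscle, -2.59, adjusted p = 4.09e-11) and 25.3 times heart. The muscle level does not go with the other sinusoidal genes, as Clec4g and Oit3 stood at 1.08% and 2.23% of their WT liver means in WT muscle, where Stab2 stood at 68.5% ± 11.9 (SD, n = 4). In the annotation, the antisense gene Gm16271 overlaps Stab2, so without the use of strand, reads of either gene can be assigned to the other. Gm16271 read 2.90 TPM in WT muscle, 0.160 TPM in WT liver, 0.942 TPM in WT heart and 0 TPM in WT BAT. Whether the authors' quantification used strand is not given in the sources used here, and the part of this overlap was not tested.

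Clec4g (chr8:3707064-3720651, minus strand) encodes a C-type lectin of liver and lymph node sinusoidal endothelium. It was the highest of the 10 genes in liver, at 24.8, 25.9, 36.0 and 45.3 TPM in the 4 WT livers, and it stayed at or under 0.866 TPM in every library of the other tissues. Oit3 (chr10:59422958-59441778, minus strand), a gene also reported from liver sinusoidal endothelium, averaged 7.10 ± 2.11 TPM in WT liver (SD, n = 4) and reached at most 0.585 TPM elsewhere. By group means, Clec4g in WT liver was 79.5 times WT BAT, 58.6 times WT heart and 92.8 times WT muscle (log2 fold changes 4.55, 4.41 and 4.61, largest adjusted p = 3.17e-14). These fold changes understate the ratios because of the pseudocount of 1. Clec4g entered this fit through liver alone, so the p-values do not test its direction. The low values outside liver have to be set beside those of hepatocyte genes, which came to 0.971% of the WT liver level in WT BAT, 0.992% in heart and 1.30% in muscle when 9 markers such as Alb were summed. Clec4g stood at 1.26%, 1.71% and 1.08% of its WT liver mean in the same tissues and Oit3 at 2.67%, 1.26% and 2.23%, so values of these genes outside liver were of the same order as those of genes made by hepatocytes. In muscle WT library 3, 0.241 of the 0.320 TPM of Oit3 lay on Oit3-202, a model with a retained intron. Where these low values come from was not tested.

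Stab1 (chr14:31139013-31168641, minus strand) encodes stabilin-1, the scavenger receptor shared by sinusoidal endothelium and macrophages. It read 10.1, 13.5, 14.4 and 15.1 TPM in the 4 WT livers, 6.31, 7.08, 16.0 and 10.6 TPM in WT BAT, 9.85, 12.0, 10.9 and 15.9 TPM in WT heart, and 3.64, 4.98, 3.26 and 3.72 TPM in WT muscle. Liver, BAT and heart overlapped, and all muscle libraries lay below them. Only the pairs with muscle were called (log2 fold change, liver minus muscle, 1.54, SE 0.22, adjusted p = 5.14e-06), while liver against BAT (0.45, adjusted p = 0.0778) and liver against heart (0.13, adjusted p = 0.607) were not. The liver to BAT difference was called higher in liver with array weights (0.68, adjusted p = 0.006), without BAT WT library 3 (0.68, adjusted p = 0.00335) and without liver WT library 1, and called lower in liver in the Mut libraries (-0.55, adjusted p = 0.000838). The liver to heart difference was called lower in liver after rescaling (-0.68, adjusted p = 0.00721). BAT minus heart (-0.32, adjusted p = 0.219) was called after median-ratio scaling (-0.54, adjusted p = 0.0139), with array weights (-0.50, adjusted p = 0.0217) and without BAT WT library 3 (-0.56, adjusted p = 0.0155), and the other way in the Mut libraries (0.68, adjusted p = 0.000145). Stab1 overlaps the gene Nt5dc2 on the other strand, which averaged 5.08 TPM in WT liver, 1.51 TPM in BAT, 6.85 TPM in heart and 0.977 TPM in muscle. In bulk tissue, fewer cells of a type and less RNA per cell cannot be told apart, so none of these levels counts vessels.

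TPM depends on what else a tissue makes, and liver RNA and BAT RNA each hold a few very abundant genes. In the WT pairs the median log2 difference of all genes lay between -0.03 and 0.14. It moved to -0.54 for liver minus BAT, -0.53 for liver minus heart, -0.27 for liver minus muscle, 0.28 for BAT minus muscle and 0.27 for heart minus muscle when each library was rescaled without its mitochondrial genes and the 10 most abundant others. Relative to that median, Pecam1, Cdh5, Flt1, Tek and Emcn stayed lower in liver than in each other tissue under all 3 scalings, as did Kdr against BAT and heart. Kdr in liver minus muscle stood 0.36, 0.32 and 0.30 above the median of all genes under the 3 scalings.

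Promoters are shown for 1 general endothelial gene, Emcn, and for the sinusoidal genes Stab2 and Clec4g, which differ from it and from each other in where they were high. Each runs from 250 bases before to 50 bases after the start of the gene in RefSeq, on the build GRCm38.p6, and is printed 5′ to 3′ on the strand of the gene. They lie at chr3:137340828-137341127 (Emcn, plus strand), chr10:87007893-87008192 (Stab2, minus strand) and chr8:3720602-3720901 (Clec4g, minus strand). Capitals mark matches to GATA (or TATC on the other strand), the core letters bound by GATA factors, and to AGGAAG (or CTTCCT), letters read by ETS factors, which are known regulators of endothelial genes.
Emcn promoter: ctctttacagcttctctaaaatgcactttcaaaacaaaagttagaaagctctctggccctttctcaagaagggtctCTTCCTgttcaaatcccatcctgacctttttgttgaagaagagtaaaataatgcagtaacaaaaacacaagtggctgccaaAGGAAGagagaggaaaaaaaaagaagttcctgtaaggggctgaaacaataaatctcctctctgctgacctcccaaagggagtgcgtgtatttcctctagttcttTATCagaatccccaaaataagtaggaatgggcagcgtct
Stab2 promoter: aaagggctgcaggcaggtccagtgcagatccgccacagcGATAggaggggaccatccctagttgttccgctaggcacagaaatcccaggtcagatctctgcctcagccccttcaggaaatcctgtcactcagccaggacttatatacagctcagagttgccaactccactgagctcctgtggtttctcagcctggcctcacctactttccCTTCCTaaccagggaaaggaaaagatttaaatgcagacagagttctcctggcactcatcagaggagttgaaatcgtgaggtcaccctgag
Clec4g promoter: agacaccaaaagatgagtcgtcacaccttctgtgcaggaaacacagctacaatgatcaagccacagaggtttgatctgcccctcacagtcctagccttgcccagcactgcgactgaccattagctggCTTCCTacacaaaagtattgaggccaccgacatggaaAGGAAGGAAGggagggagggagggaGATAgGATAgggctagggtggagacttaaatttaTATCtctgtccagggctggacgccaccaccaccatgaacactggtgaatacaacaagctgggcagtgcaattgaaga
The Emcn window held 1 GATA and 2 AGGAAG matches, the Stab2 window 1 of each, and the Clec4g window 3 of each, where 2 of the AGGAAG matches overlap each other and no base belonged to both motifs. Of the 7 members with a promoter in the table, 6 held GATA and 5 held AGGAAG, and Kdr, Flt1, Tek and Stab1 held 1, 0, 2 and 2 GATA matches and 0, 2, 0 and 1 AGGAAG matches. GATA occurred in 57.9% of all 32851 promoters of this length and AGGAAG in 35.4%. A match describes these letters and no binding was measured. The promoters of Pecam1, Cdh5 and Oit3 were not used here.

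Other genes of the vessel wall were counted in lists and not tested as sets, and all counts here are of calls at an adjusted p under 0.05. Between WT liver and WT heart, 16 of 17 other endothelial markers (such as Cldn5 and Esam) were lower in liver and 1 was higher, where 33.1% and 44.9% of all genes were. The exception was Plvap, the diaphragm protein of fenestrated endothelium, named here after its values were seen, which averaged 16.5 ± 1.89 TPM in WT liver and 7.93 ± 2.79 TPM in WT heart (SD, n = 4 each). All 10 genes of a list on fatty acid handling in continuous capillaries were lower in WT liver than in WT heart and in WT BAT. That list holds genes also made by parenchymal cells, such as Cd36, so its count does not describe endothelium alone. All 9 Notch genes and 14 of 15 endothelial transcription factors were also lower in WT liver than in each of BAT and heart, with the other factor higher. Of 16 tested genes of a further sinusoidal list, 13 were higher and 2 lower in WT liver than in BAT, 12 and 3 against heart, and 12 and 3 against muscle, with 1 gene not called each time. All genes gave 36.5% higher and 34.6% lower in liver than in BAT, and 42.0% and 36.7% against muscle. Genes of the sinusoidal list that averaged under 1 TPM outside liver, such as Dnase1l3, entered this fit through liver alone. Their direction was thus fixed by the filter. The 13 vascular receptors and co-receptors were less uniform. Between WT liver and WT BAT, 10 were lower and 1 higher in liver, between liver and heart 8 were lower and none higher, and between liver and muscle 5 were lower and 5 higher. Flt4, the VEGF receptor of lymphatic vessels, was the 1 above BAT, at 2.84 ± 0.674 TPM in WT liver and 1.61 ± 0.245 TPM in WT BAT (SD, n = 4 each). Eng, Flt4, Nrp1, Nrp2 and S1pr1 were the 5 above muscle. The lists did not all hold against muscle either, as Notch1, Clec14a, Plvap, Nr2f2 and Fabp5 of them were called higher in WT liver than in WT muscle. The genes in these counts were named after their values were seen. Between WT heart and WT muscle, all 13 receptors were higher in heart, against 29.0% of all genes.

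Genes whose level went with a member over the 32 libraries were found by Pearson's r of log2(TPM + 1) among 14367 genes, as a description of libraries that share tissues and dominated by the tissue differences. Pecam1, Cdh5, Flt1, Tek and Emcn went with each other, at r of 0.95 to 0.99 in every pair, while Kdr reached 0.70 to 0.81 with them. The genes most like Pecam1 were Adgrf5 (r = 0.991), Flt1 (0.990) and Jcad (0.987), and Adgrf5 also led for Flt1 (0.996). Cdh5 was most like Cd93, Fli1 and Jcad (0.986 each). Kdr was most like the transcription factor gene Ets1 (0.981), then Btnl9 (0.972) and Pcdh12 (0.962). Tek went with Pecam1 (0.985), Lpl (0.983) and Jcad (0.980), and Emcn with Thbd (0.989), Ptprm (0.986) and Gjc1 (0.981). Clec4g and Oit3 reached 0.99 with each other. The genes nearest to Clec4g were Nr5a2, Gsta3 and Il1rap (0.996 each). Those nearest to Oit3 were Dnase1l3, a gene of the further sinusoidal list, Apoa5, and the hepatocyte marker Ass1 (0.992 each). Stab2, with its level in muscle, was most like the metabolic genes Gpt2 (0.990) and Slc37a4 (0.990) and Ociad2 (0.983). Stab1 was the least like the rest, at 0.03 to 0.58 with the 6 general endothelial genes, and its nearest genes, Coro1c (0.937), Ttyh3 (0.934) and Cdc42ep1 (0.909), were less close.

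The second comparison set Mut libraries against WT libraries within each tissue, with limma on log2(TPM + 1) and Benjamini-Hochberg adjustment over all genes that averaged 1 TPM or more in the tissue. The p-values measure the spread between these libraries. No member was called in any tissue. Over all genes, 0% of 12150 were called in BAT (2369 had an unadjusted p under 0.05), 0.150% in heart, 4.16% in liver and 0.00850% in muscle. The share in liver rested on single libraries, as it lay between 0.183% (without WT library 3) and 3.25% (without WT library 2) with 1 library left out, at 1.05% with the replicate block, at 2.10% after median-ratio scaling and at 12.6% in 1 fit over all libraries. In BAT it reached 6.74% without WT library 3. Of the 10 members, 10 could be tested in liver, 8 in muscle and 7 each in BAT and heart, where Clec4g and Oit3 (and Stab2 in BAT and heart) lay below the minimum. Without regard to p, 6 of 7 members were higher in Mut BAT, where 72.7% of all genes were, and 5 of 10 in Mut liver, where 69.0% of all genes were. In Mut muscle 6 of 8 members were higher, against 67.0% of all genes, and in Mut heart 2 of 7, against 19.3%. The median log2 fold change of the members was 0.24 in BAT, 0.04 in liver, -0.03 in heart and 0.08 in muscle, beside 0.09, 0.10, -0.11 and 0.05 for all genes in the same tissues.

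**Figure D2:**
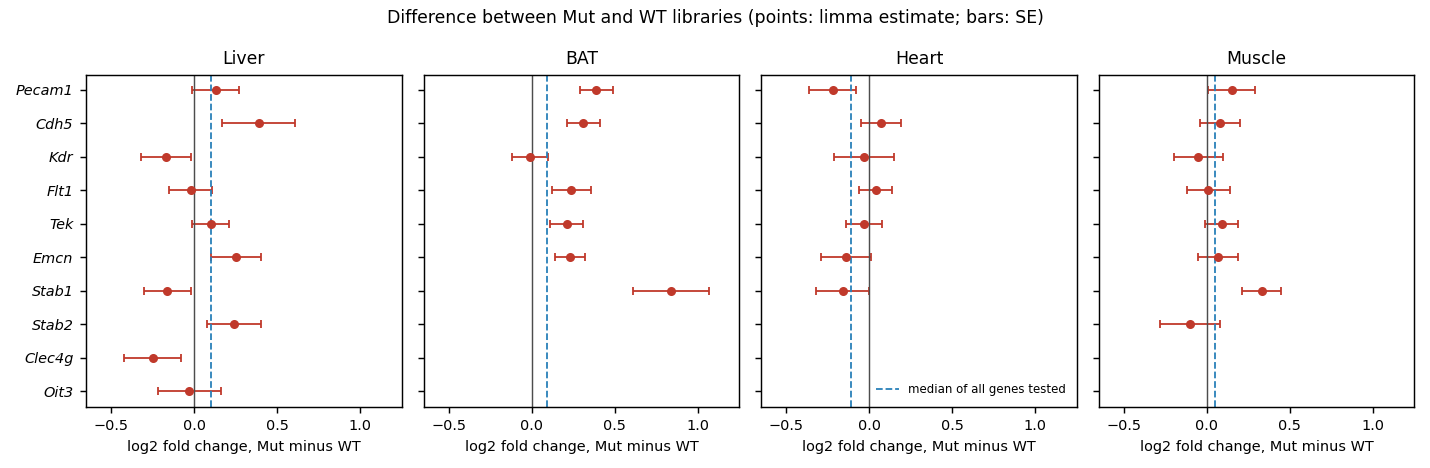
Log2 fold change (Mut minus WT) of each tested member in the 4 tissues, with its standard error; the dashed line is the median of all genes tested in the tissue. Among the BAT members, Stab1 and Pecam1 lie farthest to the right of that line, at 0.84 and 0.39.

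BAT held the members with the smallest unadjusted p. Pecam1 read 47.0, 56.5, 56.8 and 51.4 TPM in Mut BAT, against 36.7, 37.6, 45.9 and 40.3 TPM in WT BAT. Stab1 read 18.3, 17.1, 16.5 and 18.6 TPM in Mut BAT, against 6.31, 7.08, 16.0 and 10.6 TPM in WT BAT. In both genes every Mut library lay above every WT library, Stab1 by a narrow margin over WT library 3, and the WT libraries of Stab1 spread far more than the Mut libraries. Such separation with Mut higher was seen for 2 of the 7 tested members, against 7.75% of all genes. Pecam1 averaged 52.9 ± 4.67 TPM in Mut BAT and 40.1 ± 4.15 TPM in WT BAT (SD, n = 4 each; log2 fold change 0.39, SE 0.10, adjusted p = 0.123). Stab1 averaged 17.6 ± 0.975 TPM in Mut BAT and 9.98 ± 4.39 TPM in WT BAT (log2 fold change 0.84, SE 0.23, adjusted p = 0.136). Neither passed the threshold.

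Cdh5 read 41.6, 50.5, 56.5 and 51.1 TPM in Mut BAT, against 37.4, 38.2, 43.5 and 40.4 TPM in WT BAT, with Mut library 1 inside the WT range (log2 fold change 0.31, SE 0.10, adjusted p = 0.159). Emcn read 15.7, 19.0, 19.1 and 18.7 TPM in Mut BAT, against 15.9, 13.6, 15.5 and 16.1 TPM in WT BAT, again with Mut library 1 among the WT libraries (0.23, SE 0.09, adjusted p = 0.209). Pecam1, Stab1, Cdh5 and Emcn were the 4 of 7 members at an unadjusted p under 0.05, all with Mut higher, against 17.2% of all genes. The receptors overlapped between genotypes. Flt1 averaged 20.2 ± 2.75 TPM in Mut BAT and 16.9 ± 2.25 TPM in WT BAT, Tek 12.4 ± 1.20 and 10.6 ± 1.17 TPM, and Kdr 21.2 ± 3.32 and 21.2 ± 1.52 TPM, with Mut first in each pair (adjusted p of 0.296, 0.294 and 0.970). Stab2, below the minimum in BAT, read 0.278 to 0.335 TPM in Mut BAT and 0.153 to 0.181 TPM in WT BAT, without overlap. Its transcript Stab2-205 read 0.1568 to 0.2125 TPM in Mut BAT and 0.096 to 0.1313 TPM in WT BAT, also without overlap. The full coding transcript Stab2-201 overlapped, at 0.0422 to 0.1021 TPM in Mut BAT and 0.02198 to 0.07023 TPM in WT BAT. Of the 15455 genes above 0 and under 1 TPM in BAT, 2.56% separated with Mut higher, and with no minimum Stab2 was not called (adjusted p = 0.214). Stab2 is far higher in muscle than in BAT, and the 9 skeletal muscle fibre markers summed to 1936, 2973, 2026 and 1170 TPM in Mut BAT libraries 1 to 4, against 1294 to 1395 TPM in WT BAT. Mut libraries 1 to 3 lay above every WT library and library 4 below them, and the part of muscle RNA in the Stab2 values was not tested.

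The BAT values depended on single WT libraries. Without BAT WT library 3, both Stab1 (log2 fold change 1.08, adjusted p = 0.0217) and Pecam1 (0.46, adjusted p = 0.0276) passed, as they did with limma array weights (1.01, adjusted p = 0.0318, and 0.46, adjusted p = 0.0384). In 1 fit over all 32 libraries Stab1 passed (adjusted p = 0.00896). Many other genes passed in the same fits, namely 6.74% of all genes without BAT WT library 3, 5.33% with array weights and 5.57% in the fit over all libraries. Without BAT WT libraries 1 and 2, which stood apart, Stab1 came to 0.41 (adjusted p = 0.263) and Pecam1 to 0.29 (adjusted p = 0.264).

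Macrophage markers were read beside Stab1 in BAT, and none of them was called there in the main fit. Cd68 passed without BAT WT library 3 (log2 fold change 2.16, limma adjusted p = 0.023) and with array weights (1.93, adjusted p = 0.0438). Those are the fits in which Stab1 and Pecam1 passed, with 6.74% and 5.33% of all genes. Without BAT WT libraries 1 and 2, Cd68 came to 0.61 (adjusted p = 0.464). The summed TPM of 13 macrophage and Kupffer cell markers was 246, 203, 196 and 267 in Mut BAT libraries 1 to 4, against 41.5, 59.3, 199 and 126 in WT BAT libraries 1 to 4. The WT library with the highest sum, library 3, was the one with the highest Stab1, and libraries 1 and 2, with the lowest sums, had the lowest Stab1. All 8 tested genes of the list had a positive log2 fold change in BAT, with a median of 1.20. C1qa, a complement component made by macrophages, averaged 50.8 ± 7.19 TPM in Mut BAT and 23.6 ± 13.1 TPM in WT BAT (SD, n = 4 each; log2 fold change 1.23, adjusted p = 0.132). The Kupffer cell markers Clec4f, Vsig4, Timd4, Marco and Cd5l averaged under 1 TPM over the BAT libraries. Of blood markers, 7 red blood cell genes summed to 4085 to 6227 TPM in Mut BAT and 2097 to 3868 TPM in WT BAT, without overlap. The 6 platelet genes summed to 35.1 to 55.2 TPM in Mut BAT and 11.4 to 39.6 TPM in WT BAT, with overlap, and no gene of either list was called. The part of these cells in the BAT values of Stab1 and Pecam1 was not tested.

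**Figure D3:**
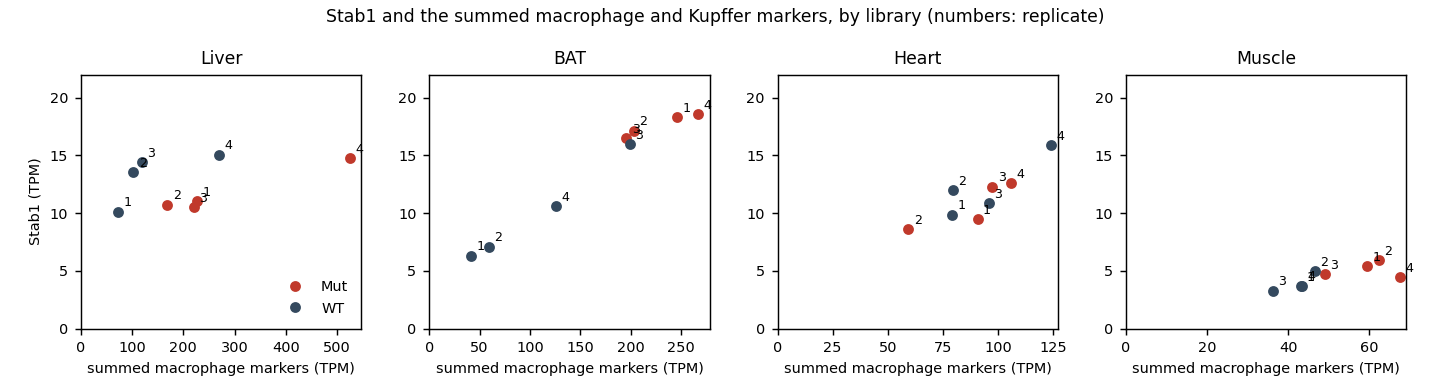
Stab1 in TPM against the summed TPM of 13 macrophage and Kupffer cell markers, by tissue, with 1 point per library and its replicate number. In BAT, WT libraries 1 and 2 lie at the lower left, at 6.31 and 7.08 TPM of Stab1, and WT library 3 lies near the Mut libraries.

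In liver the sinusoidal genes did not move together. Clec4g read 26.9, 29.8, 24.5 and 25.9 TPM in Mut liver, against 24.8, 25.9, 36.0 and 45.3 TPM in WT liver (log2 fold change -0.25, adjusted p = 0.385). The groups overlapped, and WT libraries 3 and 4 lay above every Mut library. Stab2 read 11.0, 10.5, 9.35 and 10.5 TPM in Mut liver, against 6.03, 9.64, 8.01 and 11.6 TPM in WT liver (0.24, adjusted p = 0.376), inside the WT range. Stab1 averaged 11.8 ± 2.01 TPM in Mut liver and 13.3 ± 2.20 TPM in WT liver (-0.16, adjusted p = 0.500), and Oit3 6.84 ± 1.38 and 7.10 ± 2.11 TPM (-0.03, adjusted p = 0.939). Cdh5 had the largest difference of the general endothelial genes in liver, at 7.73 ± 2.40 TPM in Mut liver and 5.65 ± 1.78 TPM in WT liver (0.39, SE 0.22, adjusted p = 0.291), and the groups overlapped. The macrophage list gave sums of 169 to 525 TPM in Mut liver and 72.1 to 270 TPM in WT liver, with a positive log2 fold change for 13 of 13 genes and 1 called, Cd68 (log2 fold change 1.09, adjusted p = 0.0380). The Cd68 call was lost in 7 of the 8 fits that left out 1 liver library, in all but the one without WT library 4 (adjusted p of at most 0.108). Stab1 was not higher in Mut liver, although Mut library 4, with the highest macrophage sum, also had the highest Stab1 of the Mut livers, at 14.8 TPM.

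Around the members, 9 other vascular lists held 108 genes. Of these, 80 were tested in liver and 2 (2.50%) were called, against 4.16% of all genes, and none of the 85 to 97 tested in each other tissue was called. Plvap read 35.5, 29.7, 23.1 and 32.4 TPM in Mut liver, against 15.4, 19.1, 14.9 and 16.6 TPM in WT liver (log2 fold change 0.82, SE 0.13, adjusted p = 0.0205), without overlap. In heart Plvap lay the other way, at 3.90 ± 1.90 TPM in Mut heart and 7.93 ± 2.79 TPM in WT heart (SD, n = 4 each), and was not called (-0.88, SE 0.26, adjusted p = 0.375). Cd36, a fatty acid transporter made by capillary endothelium and by parenchymal cells, averaged 166 ± 38.0 TPM in Mut liver and 70.5 ± 16.5 TPM in WT liver (SD, n = 4 each; log2 fold change 1.22, SE 0.19, adjusted p = 0.0191). Both calls were lost without liver Mut library 1 (adjusted p of 0.0577 for Plvap and 0.0544 for Cd36), without liver WT library 3 (0.0619 and 0.0573) and with no filter (0.0643 each), and that of Plvap also without liver Mut library 2 (0.0515). No gene of the list of 18 other sinusoidal genes was called in liver, where 10 of 15 tested were higher and 5 lower, with a median of 0.08 beside 0.10 for all genes. Vegfa, the main ligand of KDR and FLT1, averaged 107 ± 9.91 TPM in Mut liver and 136 ± 7.97 TPM in WT liver (-0.34, adjusted p = 0.0548), and Vegfc 1.93 ± 0.318 and 1.17 ± 0.276 TPM (0.43, adjusted p = 0.0807). After median-ratio scaling, 1 of the 5 tested ligands was called lower in Mut liver, where 2.10% of all genes were called in either direction. In the main fit no ligand was called.

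In BAT none of the other vascular genes were called. Their log2 fold change was positive, as it was for 72.7% of all genes, for 16 of 17 other endothelial markers (median log2 fold change 0.27), 8 of 8 Notch genes (0.28), 11 of 14 endothelial transcription factors (0.33), 10 of 10 lipid handling genes (0.22) and 10 of 10 pericyte and smooth muscle markers (0.26), beside a median of 0.09 for all genes. These counts are of the main fit, and those without BAT WT libraries 1 and 2, which stood apart, are not given here. In the fit without them, Plvap came to 0.22 (limma adjusted p = 0.441), from 0.48 in the main fit. Cd36 came to -0.03 (adjusted p = 0.923), from 0.12. Erg, an ETS factor of endothelial cells, averaged 9.45 ± 1.03 TPM in Mut BAT and 6.47 ± 0.518 TPM in WT BAT (SD, n = 4 each; 0.48, adjusted p = 0.106). Klf2, a factor induced by blood flow, averaged 69.5 ± 10.4 TPM in Mut BAT and 40.6 ± 9.88 TPM in WT BAT (0.79, adjusted p = 0.123), and Bmp6 12.4 ± 0.987 and 8.54 ± 1.28 TPM (0.50, adjusted p = 0.121). In heart, 1 of 17 other endothelial markers and 1 of 15 endothelial transcription factors had a positive log2 fold change (medians -0.09 and -0.07), where 19.3% of all genes did, with a median of -0.11. Heart Mut library 2 stood apart from the other heart libraries on the first principal component, which held 45.5% of their variance, and had the lowest sum of cardiomyocyte markers, 21140 TPM. Without it, 7 of the 17 markers and 7 of the 15 factors had a positive log2 fold change (medians -0.04 and -0.01), beside a median of -0.05 for all genes. In that fit 0 of 7 members were called, against 0.0745% of 12082 genes, and 4 of the 7 had a positive log2 fold change.

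Heart and muscle gave small differences in the members. Pecam1 averaged 39.7 ± 3.71 TPM in Mut heart and 46.9 ± 9.18 TPM in WT heart (SD, n = 4 each; log2 fold change -0.22, SE 0.14, adjusted p = 0.494), and Emcn 20.7 ± 3.82 and 22.8 ± 3.44 TPM (-0.14, adjusted p = 0.679). The other 5 tested members of heart differed by -0.16 to 0.07. In muscle Stab1 read 5.40, 5.94, 4.69 and 4.44 TPM in Mut muscle, against 3.64, 4.98, 3.26 and 3.72 TPM in WT muscle. WT library 2 lay among the Mut libraries, and the other WT libraries lay below them all (log2 fold change 0.33, SE 0.12, unadjusted p = 0.0234, adjusted p = 0.578). Stab1 was the 1 of 8 tested members at an unadjusted p under 0.05 in muscle with Mut higher, against 6.33% of all genes. The macrophage sums in muscle were 49.1 to 67.6 TPM in Mut and 36.3 to 46.5 TPM in WT, without overlap. Stab2 in muscle averaged 5.69 ± 1.74 TPM in Mut and 6.05 ± 1.05 TPM in WT (-0.10, adjusted p = 0.894).

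Whether the genotype difference itself differed between tissues was tested with the interaction terms of 1 limma fit over all 32 libraries. Stab1 was the 1 member called (F = 6.59, adjusted p = 0.0371), against 6.03% of 14367 genes. Its Mut minus WT difference was larger in BAT than in heart by 1.00 on the log2 scale (SE 0.26, adjusted p = 0.0285) and than in liver by 1.00 (SE 0.26, adjusted p = 0.0310), and the gap to muscle was 0.52 (adjusted p = 0.657). For Pecam1 the gap between BAT and heart was 0.62 (SE 0.19, adjusted p = 0.0541), and the F test gave adjusted p = 0.147. The Stab1 call was lost without BAT WT libraries 1 and 2 (F = 3.62, adjusted p = 0.138), without the filter on low genes (adjusted p = 0.0767) and after rescaling without the most abundant genes (adjusted p = 0.0558). It was also lost in 13 of the 32 fits that left out 1 library, at adjusted p of at most 0.0818. These were the fits without BAT Mut 1, 2 or 4, BAT WT 1 or 2, heart Mut 1 or 2, heart WT 2 or 4, liver Mut 1 or 2, and liver WT 3 or 4.

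The deposited table is per transcript, so isoforms of the members could be compared. No transcript of a member was called between genotypes, against 0.104% of all transcripts in liver, 0% in BAT, 0.0330% in heart and 0.00935% in muscle. Flt1 makes a full-length receptor and a soluble form that ends early and traps VEGF. In the annotation, Flt1-202 has 30 exons and 1333 codons, and Flt1-203 reads past the end of exon 13 and stops after 92 further coding bases, at 688 codons. The junction is printed on the minus strand of GRCm38, over chr5:147634464-147639284 for Flt1-202 and chr5:147639133-147639284 for Flt1-203. The 60 lower-case bases are shared, and capitals mark the start of exon 14 in Flt1-202 and the read-through coding bases in Flt1-203.
Flt1-202: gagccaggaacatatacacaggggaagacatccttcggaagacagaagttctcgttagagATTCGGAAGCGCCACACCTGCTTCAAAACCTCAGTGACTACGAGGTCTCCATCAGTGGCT
Flt1-203: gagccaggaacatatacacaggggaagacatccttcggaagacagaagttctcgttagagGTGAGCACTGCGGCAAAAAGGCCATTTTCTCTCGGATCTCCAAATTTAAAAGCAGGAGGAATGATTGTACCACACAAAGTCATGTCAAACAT
Flt1-203 held 22.7%, 27.6%, 22.5% and 23.1% of the Flt1 TPM in the 4 WT livers and 21.8%, 23.2%, 24.4% and 22.5% in WT heart. It held 27.5%, 27.4%, 34.1% and 34.5% in WT BAT, and 33.1%, 32.3%, 28.6% and 30.6% in WT muscle. All BAT libraries and all muscle libraries lay above all heart libraries. The share was 7.90 points higher in BAT than in heart, 8.19 points lower in heart than in muscle and 7.18 points lower in liver than in muscle. Each of these gave p = 0.0286 in an exact permutation test (two-sided, 70 assignments), the smallest p that 4 against 4 libraries allow, and 0.236 after Benjamini-Hochberg adjustment over 33 share tests. Between genotypes the mean share was 1.41 to 3.43 points higher in Mut than in WT in the 4 tissues (exact p of 0.114 or more). Shares of a short and a long transcript depend on how reads of shared exons are divided between them.

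**Figure D4:**
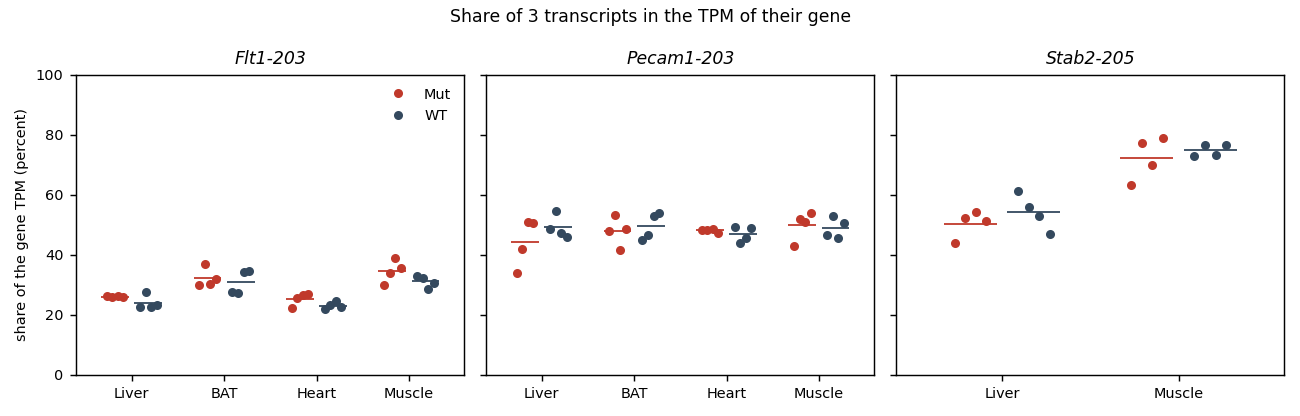
Share of Flt1-203, Pecam1-203 and Stab2-205 in the TPM of their gene, in percent, with points for libraries and bars for group means. Flt1-203 is at most 24.4% in the WT heart libraries and at least 28.6% in the WT muscle libraries, and Stab2-205 is higher in WT muscle (74.8%) than in WT liver (54.3%).

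Pecam1 has transcripts with and without a cytoplasmic exon. Pecam1-202 carries exon 14, of 57 bases at chr11:106671742-106671798 (GRCm38, minus strand), and codes for 716 codons, while Pecam1-203 lacks it and codes for 697. The exon is in capitals, with the coding bases that flank it up to the stop codon.
Pecam1-202: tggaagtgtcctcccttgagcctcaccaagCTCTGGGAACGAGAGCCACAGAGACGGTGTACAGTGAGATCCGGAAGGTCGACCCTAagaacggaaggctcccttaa
Pecam1-203: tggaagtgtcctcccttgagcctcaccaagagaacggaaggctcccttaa
Pecam1-203 held 49.1% ± 3.73 of the Pecam1 TPM in WT liver, 49.5% ± 4.49 in BAT, 46.9% ± 2.53 in heart and 48.9% ± 3.52 in muscle (SD, n = 4 each). These shares overlapped between all tissues, although Pecam1 itself differed 7.38-fold between WT liver and WT heart. In Stab2, the transcript Stab2-205, an incomplete model of 28 exons typed as a target of nonsense-mediated decay, shares 26 exons with the coding transcript Stab2-201 (69 exons) and begins at its exon 41. Stab2-205 held 74.8% ± 2.09 of the Stab2 TPM in WT muscle and 54.3% ± 5.92 in WT liver, a difference of 20.5 points without overlap (exact permutation p = 0.0286, adjusted p = 0.236). In TPM, Stab2-205 averaged 4.52 in WT muscle and 4.70 in WT liver, while Stab2-201 averaged 1.30 ± 0.157 in WT muscle and 3.62 ± 1.18 in WT liver (SD, n = 4 each). The muscle level of Stab2 thus rested more on the partial model than the liver level did. Of Stab1, the coding transcript Stab1-201 held 21.7% to 35.6% of the gene's TPM by group mean, and most of the rest lay on models with retained introns. In BAT, Stab1-201 read 5.74, 5.00, 4.66 and 4.15 TPM in Mut libraries, against 1.95, 1.66, 4.62 and 3.86 TPM in WT libraries, and the groups overlapped. The retained-intron model Stab1-209 read 7.22, 5.94, 5.92 and 6.94 TPM in Mut BAT, against 1.98, 2.51, 6.01 and 3.39 TPM in WT BAT, also with WT library 3 among the Mut libraries.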

How the data were processed

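RNA was measured in 4 Mut and 4 WT libraries of each of liver, BAT, heart and muscle. Libraries were stranded and made from bead-purified total RNA, per the labels. The authors deposited TPM for each transcript, and the submitters' processing notes name Salmon. For its version, the transcript set and the use of strand: not given in the sources used here. TPM keeps no read totals, so no counting interval is given.

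Of 147493 transcript identifiers, 136081 (92.26%) matched GENCODE M21 (GRCm38) with version numbers ignored, 37 of them with the same version, and TPM was summed per gene. Unmatched transcripts held 0.451% to 0.896% of a library's TPM. The 3 of 4 annotated Clec4g transcripts in the table were summed, and the other members were complete. Fits used limma 3.58.1 in R 4.3.3, on log2(TPM + 1) with a trend of the variance on the mean, for genes that averaged 1 TPM or more in the tissue (in at least 1 tissue for fits over several), two-sided, with Benjamini-Hochberg adjustment over all genes and calls at an adjusted p under 0.05. Transcript shares were compared with exact permutation tests. Tables and figures used Python 3.11.15, pandas 2.3.3, scipy 1.17.1 and matplotlib 3.10.9. Promoters are from RefSeq. The fits were checked on simulated data.

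The members and the other gene lists were chosen with earlier results of these data known. Named were all 10 members, up to 4 called genes per list and tissue by smallest p (or, with none called, up to 2 as values), the 3 genes most like each member, and the targeted gene, and genes outside this rule are said to be so. Alternatives were a pseudocount of 0.1, no filter and a minimum of 5 TPM, 1 fit over all libraries, no trend, median-ratio scaling, array weights, a rescaling that left out mitochondrial genes and the 10 most abundant others, a block for the replicate number, a gene at 1 TPM in every tissue, an adjusted p under 0.1, the Mut libraries in place of WT for tissue pairs, and leaving out each library. Leaving out BAT WT libraries 1 and 2 together was added after the data were seen.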

Additional observations from a re-analysis of the deposited data

Results flagged for a closer look

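Of 80 groups of 4 libraries (10 genes in 8 groups), 3 had a library that stood far from the other 3, where chance gives about 1 in 20. Emcn read 15.7 TPM in BAT Mut library 1, with 18.7 to 19.1 TPM in Mut libraries 2 to 4. Stab1 read 14.8 TPM in liver Mut library 4, with 10.5 to 11.0 TPM in Mut libraries 1 to 3. Library 4 also held the highest macrophage marker sum of the liver, 525 TPM. Oit3 read 0.585 TPM in muscle Mut library 2, with 0.125 to 0.135 TPM in the rest of Mut muscle, all below 1 TPM. In that library, 0.394 TPM lay on the retained-intron model Oit3-202 and 0.191 TPM on the coding transcript Oit3-201.

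The Mut minus WT difference of Stab1 was called between tissues in the limma interaction test (adjusted p = 0.0371), as were 6.03% of all genes. The difference was 0.84 in BAT, -0.16 in liver, -0.16 in heart and 0.33 in muscle on the log2 scale. The call was lost in 13 of the 32 fits that left out a library. The call was also lost without the BAT WT libraries that stood apart, with no filter and after rescaling. Summed macrophage markers averaged 228 TPM in Mut BAT and 107 TPM in WT BAT, and 88.4 TPM in Mut heart and 94.8 TPM in WT heart. The part of these cells in the difference was not tested.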

How the results depend on the processing

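TPM gives shares of a library, so a rise in abundant genes lowers the rest, and the depth behind low values such as Stab2 in BAT is unknown. With 4 libraries a group, single libraries decided several calls. Counts of members called in liver, heart and muscle between genotypes were 0 under every alternative run. At an adjusted p under 0.05, 22 to 1810 of all genes were called in liver, 0 to 118 in heart and 0 to 8 in muscle. In BAT the count was 0 in the main analysis, 2 with array weights (when 648 of all genes were called, against 0 in the main analysis) and 1 in 1 fit over all libraries (800 of all genes), and 0 to 2 when 1 library was left out (0 to 819 of all genes). For WT BAT minus WT heart the count was 1 in the main analysis, where 61.7% of all genes were called. It was 4 after median-ratio scaling, 3 after rescaling without the most abundant genes and 3 with array weights. The Mut libraries gave 4, and an adjusted p under 0.1 gave 2. With 1 library left out it was 1 to 2 (8309 to 8944 of all genes). For the interaction it was 1 in the main analysis, where 6.03% of all genes were called. It was 0 with no filter, after rescaling and without BAT WT libraries 1 and 2. With 1 library left out it was 0 to 1 (486 to 1560 of all genes). For these 2 comparisons, the share of all genes under the other alternatives is not given here.

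Same-numbered Mut and WT libraries of a tissue correlated at -0.25 to 0.14, with 1 of 16 pairs above 0.1. Same-numbered libraries of 2 tissues correlated at -0.09 to 0.23, with 15 of 48 above 0.1. Correlations of differently numbered libraries are not given here, so these values do not decide whether tissues share mice. The numbers were not taken as pairs. If same-numbered libraries of different tissues come from 1 mouse, the tissue and interaction fits do not allow for it. With the replicate number as a block, which joins Mut and WT libraries of a number, 0 members were called in each tissue and 1 in the interaction. Of all genes, 0% were called with it in BAT and muscle, 0.0749% in heart and 1.05% in liver. Stab1 in BAT gave 0.84 (limma adjusted p = 0.239).

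Some differences turned their sign. Between genotypes, array weights gave 0.01 for Kdr in BAT, 0.02 for Tek in heart, 0.07 for Kdr in heart and -0.04 for Flt1 in muscle. Median-ratio scaling gave 0.09 for Tek in heart, 0.09 for Kdr in heart and -0.04 for Flt1 in muscle. Rescaling gave 0.13 for Tek, 0.13 for Kdr and 0.03 for Emcn in heart and -0.01 for Flt1 in muscle. Without BAT WT libraries 1 and 2, Kdr in BAT gave 0.01. Between tissues, Stab1 in liver minus BAT came to -0.19 after rescaling and -0.55 in the Mut libraries, and in liver minus heart to -0.15 after median-ratio scaling and -0.68 after rescaling. For BAT minus heart, the Mut libraries gave 0.11 for Tek, 0.41 for Pecam1, 0.07 for Stab2 and 0.68 for Stab1, median-ratio scaling gave -0.10 for Flt1 and -0.05 for Kdr, rescaling gave -0.02 for Flt1, and leaving out BAT WT libraries 1 and 2 gave 0.11 for Stab1. The cause was not tested.

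With 1 library left out, the log2 difference between genotypes ranged from -0.11 to 0.05 for Kdr in BAT. In heart it ranged from -0.07 to 0.05 for Tek, -0.02 to 0.08 for Flt1, -0.03 to 0.12 for Cdh5 and -0.19 to 0.08 for Kdr. In liver it ranged from -0.18 to 0.13 for Oit3 and -0.09 to 0.08 for Flt1. In muscle it ranged from -0.07 to 0.10 for Flt1, -0.01 to 0.15 for Cdh5 and -0.17 to 0.07 for Kdr.

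Transcript shares with 1 library left out are differences in percentage points. Flt1-203 ranged from -0.212 to 1.5 for liver minus heart, -1.49 to 0.878 for BAT minus muscle and -0.135 to 2.61 for Mut minus WT in BAT. Pecam1-203 ranged from -2.18 to 1.04 for liver minus BAT, -1.55 to 1.62 for liver minus muscle, -0.804 to 2.17 for BAT minus muscle, and for Mut minus WT from -3.44 to 0.39 in BAT and -0.329 to 3.37 in muscle. Emcn-201 ranged from -2.37 to 0.24 for liver minus BAT, -0.678 to 3.45 for liver minus heart, and for Mut minus WT from -14.6 to 11.4 in liver and -3.11 to 5.56 in muscle. Stab2-205 ranged from -4.65 to 0.596 for Mut minus WT in muscle.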
